A study of Mus musculus with 4 samples.

Results

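Notch signaling between neighbouring cells was followed here through its receptors, its ligands and the fringe enzymes, in RNA-Seq values of Lgr5+ and Lgr6+ progenitors from the neonatal mouse cochlea. The 10 genes *Notch1*, *Notch2*, *Notch3*, *Dll1*, *Dll3*, *Jag1*, *Jag2*, *Lfng*, *Mfng* and *Rfng* were taken by their symbols from the deposited table, which holds 23997 genes. All 10 were found. The chromosomal interval given for each of them overlapped the gene of the same name in RefSeq on GRCm38.

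Lgr5+ progenitors were EGFP+ cells sorted by flow cytometry from cochleae of Lgr5-EGFP-IRES-CreERT2 mice at postnatal day 3, and Lgr6+ progenitors were EGFP+ cells sorted likewise from Lgr6-EGFP-IRES-CreERT2 mice. Both lines are labelled C57BL/6 and the labels name no treatment, and EGFP is driven in each line by the regulatory sequences of the marker gene, so a population is defined by reporter activity. There are 4 libraries in the labels, 2 per population, but the methods describe a different number of replicates, made by dividing 1 RNA extract per population, so that any spread among them would be technical. The table holds only 1 combined FPKM value (fragments scaled to transcript length and to the mapped fragments of the library) for each gene in each population. The spread between libraries was therefore not available, no test was made, and every difference given here is a difference between 2 combined values without a replicate check.

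In Notch signaling a ligand of the Delta or Jagged family on a cell binds a Notch receptor on its neighbour, the receptor is cleaved, and its intracellular domain enters the nucleus, where it joins the DNA-binding protein Rbpj and switches on repressor genes of the Hes and Hey families. Fringes are Golgi glycosyltransferases that extend O-fucose sugars on the receptor and thereby shift its response among ligands, and *Lfng* and *Mfng* are known to favour Delta over Jagged ligands. In the organ of Corti, hair cells (HCs) display Delta and Jagged ligands to the supporting cells (SCs) around them, and Notch activity in the SCs holds back their conversion to HCs.

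The sequences just upstream of the start, DNA where transcription factors bind, are shown for 4 genes. *Notch1* and *Jag1* were higher in Lgr5+ progenitors, and *Dll3* and *Lfng* were 2 of the 5 that were higher in Lgr6+ progenitors. The sequences are examples and do not stand for all genes of a direction. RefSeq promoters on GRCm38.p6 were matched for 9 of the 10 genes, not for *Mfng*. Each run is the 250 bases before the annotated start, 5′ to 3′ on the strand of the gene. The positions are chr2:26503823-26504072 on the minus strand for *Notch1*, chr2:137116521-137116770 on the minus strand for *Jag1*, chr7:28301786-28302035 on the minus strand for *Dll3* and chr5:140607091-140607340 on the plus strand for *Lfng*. Capitals mark TGGGAA, the core of the motif bound by Rbpj, and CAGCTG, an E-box of the kind bound by basic helix-loop-helix factors, both searched on both strands.
Notch1: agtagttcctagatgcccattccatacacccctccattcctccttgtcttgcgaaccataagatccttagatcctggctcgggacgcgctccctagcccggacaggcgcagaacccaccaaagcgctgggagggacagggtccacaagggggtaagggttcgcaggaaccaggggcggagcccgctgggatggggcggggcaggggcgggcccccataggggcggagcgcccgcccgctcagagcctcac
Jag1: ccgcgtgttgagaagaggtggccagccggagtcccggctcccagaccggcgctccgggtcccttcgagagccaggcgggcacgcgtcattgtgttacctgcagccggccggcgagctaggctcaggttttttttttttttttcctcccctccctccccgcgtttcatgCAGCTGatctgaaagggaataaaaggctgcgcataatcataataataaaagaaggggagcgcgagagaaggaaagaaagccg
Dll3: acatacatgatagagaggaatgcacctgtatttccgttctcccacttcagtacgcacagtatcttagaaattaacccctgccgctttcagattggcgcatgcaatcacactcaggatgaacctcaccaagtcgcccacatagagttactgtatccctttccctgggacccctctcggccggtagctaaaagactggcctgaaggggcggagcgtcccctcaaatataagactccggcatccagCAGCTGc
Lfng: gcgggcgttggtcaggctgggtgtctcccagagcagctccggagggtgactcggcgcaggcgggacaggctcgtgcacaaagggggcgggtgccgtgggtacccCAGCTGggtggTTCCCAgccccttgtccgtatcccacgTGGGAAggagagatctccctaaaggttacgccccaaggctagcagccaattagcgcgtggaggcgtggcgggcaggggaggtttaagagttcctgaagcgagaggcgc

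*Lfng* was the only gene of the 9 whose 250 bases held the Rbpj core, and it held 2 copies, which start 135 and 108 bases before the gene and lie on opposite strands. An E-box starts 146 bases before *Lfng*, without overlap with either copy. An E-box starts 82 bases before *Jag1* and 7 bases before *Dll3*, and the upstream 1 of the 2 annotated starts of *Dll1* has an E-box 132 bases before it. The 250 bases of *Notch1*, *Notch2*, *Notch3*, *Jag2* and *Rfng* held neither motif, nor did those before the other annotated start of *Dll1*. Of the 10 promoters matched, 1 held the Rbpj core and 4 the E-box, and among all 32851 promoters of the reference 21.6% held the Rbpj core and 13.0% the E-box. G and C made up from 52.0% of these bases in *Dll3* to 87.2% in *Jag2*, against a median of 52.4% over all promoters. A match of letters is a description and does not show binding.

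Of the 10 genes, 9 were kept for comparison because their FPKM was 1 or more in either population, and all 9 also reached 1 in both. Differences are given as log2(FPKM + 1), Lgr6+ minus Lgr5+, with 1.5-fold on this scale as the threshold. They understate the change of genes with low values. *Notch1* and *Jag1* were past it with the higher value in Lgr5+ progenitors. *Dll1*, *Dll3*, *Jag2*, *Lfng* and *Mfng* were past it with the higher value in Lgr6+ progenitors. *Notch3* and *Rfng* differed by less than 1.5-fold, and *Notch2* was under an FPKM of 1 in both populations.

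Over all 13436 genes kept, 23.3% were past 1.5-fold toward Lgr5+ progenitors, 28.5% toward Lgr6+ progenitors and 51.8% in either direction, so a difference of this size was common in the table. The counts of the Notch genes, 2, 5 and 7 of 9, have to be read against these shares. The median difference of the 9 genes was 0.75, and that of all kept genes was 0.03. The share past 1.5-fold also depended on the level of a gene. For genes with a mean level below 5, among which *Notch3* lies, 44.5% were past it toward Lgr6+ and 23.7% toward Lgr5+ progenitors. For genes with a mean level between 5 and 20, among which *Dll1*, *Dll3*, *Jag2* and *Lfng* lie, 24.8% were past it toward Lgr6+ progenitors. For genes between 20 and 100, among which *Notch1*, *Jag1*, *Mfng* and *Rfng* lie, the share was 17.1% toward Lgr6+ and 22.2% toward Lgr5+ progenitors. At 100 or more, where none of the 9 genes lies, it was 6.66% toward Lgr6+ and 28.7% toward Lgr5+ progenitors. Markers and other pathway genes of low or high level, named below, have to be read against this dependence too.

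**Figure D1:**
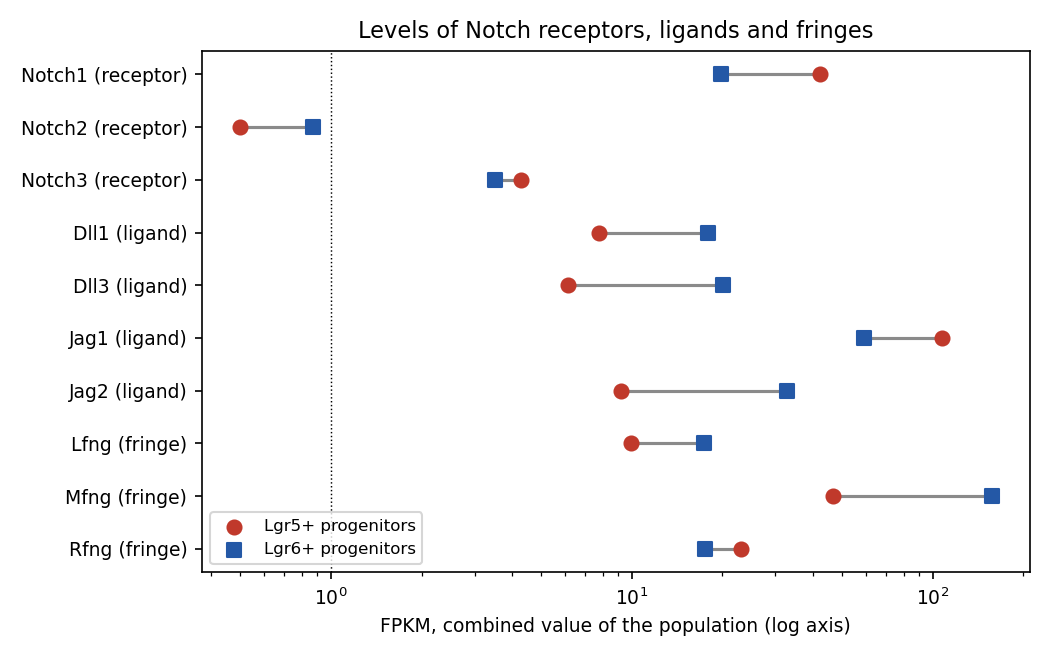
Each row is 1 gene, with its combined FPKM in Lgr5+ progenitors as a circle and in Lgr6+ progenitors as a square on a log axis, and the dotted line at an FPKM of 1. *Jag1* is the highest circle at 108 and *Mfng* the highest square at 157, and *Notch2* alone lies below the dotted line in both populations.

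The order of the genes by FPKM, which accounts for transcript length, differed at its top. In Lgr5+ progenitors *Jag1* was the highest, followed by *Mfng*, *Notch1*, *Rfng*, *Lfng*, *Jag2*, *Dll1*, *Dll3*, *Notch3* and *Notch2*. In Lgr6+ progenitors *Mfng* was the highest, followed by *Jag1* and *Jag2*. *Dll3*, *Notch1*, *Dll1*, *Rfng* and *Lfng* came next and lay close together, between an FPKM of 20.1 and 17.4, and *Notch3* and *Notch2* were again the lowest. Which neighbours in these orders differ beyond replicate spread cannot be said without values of single libraries.

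Among the receptors, *Notch1* encodes the receptor through which SCs of the organ of Corti are known to receive the signal. Its interval is chr2:26457902-26503822. *Notch1* was at 42.1 FPKM in Lgr5+ and 19.8 in Lgr6+ progenitors. Its level was thus 2.13 times as high in Lgr5+ progenitors, a difference of -1.05 on the log2(FPKM + 1) scale, and 10.6% of all kept genes had a lower difference. *Notch1* stood above 83.3% of the kept genes in Lgr5+ progenitors and above 68.7% in Lgr6+ progenitors. In bulk RNA of sorted cells, fewer cells that express a gene and less of its RNA in each cell cannot be told apart.

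*Notch3*, at chr17:32120893-32166852, is best known from pericytes and vascular smooth muscle. It had an FPKM of 4.29 in Lgr5+ and 3.51 in Lgr6+ progenitors, a difference of -0.23. Pericyte and smooth muscle markers summed, over all 9 of them, to an FPKM of 11.3 in Lgr5+ and 17.8 in Lgr6+ progenitors. Of these, 3 were kept. *Tagln* and the defining marker *Rgs5* were past 1.5-fold toward Lgr6+ progenitors, with 2.97 and 7.84 for *Tagln* and 0 and 2.64 for *Rgs5*, which passed the filter through Lgr6+ progenitors alone. The other defining marker, *Pdgfrb*, had 8.25 and 5.69 and was within 1.5-fold. In Lgr5+ progenitors 5 of the 9 were listed at 0. A low level can read as 0 more easily in Lgr5+ progenitors, whose low values fell on larger steps, given below for *Notch2*. The part of pericytes and smooth muscle in the level of *Notch3* was not tested.

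*Notch2*, at chr3:98013538-98150367, was the lowest gene of the family, with an FPKM of 0.497 in Lgr5+ and 0.871 in Lgr6+ progenitors. It did not enter the counts of genes past 1.5-fold. Low FPKM values fall on steps, because a transcript can hold only whole fragments, and the product of FPKM and transcript length in kilobases, less 200 bases, had a step of 0.128 in Lgr5+ and 0.0401 in Lgr6+ progenitors. In these units *Notch2* corresponded to about 40 steps in Lgr5+ and 224 in Lgr6+ progenitors, the fewest of the 10 genes, and *Dll3* to 116 and 1208. It is unknown whether a single step stands for 1 fragment or for part of 1 after libraries were combined.

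Summed over the 3 receptors, FPKM was 46.9 in Lgr5+ and 24.2 in Lgr6+ progenitors, which puts Lgr6+ at 51.5% of Lgr5+. *Notch1* made up 89.8% of the receptor sum in Lgr5+ and 81.9% in Lgr6+ progenitors, and *Notch3* made up 9.15% and 14.5%.

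Among the ligands, *Jag1* and *Jag2* encode the Jagged proteins and differed in opposite directions. *Jag1*, at chr2:137081451-137116520, marks the prosensory domain and later the SCs. Its FPKM was 108 in Lgr5+ and 59.2 in Lgr6+ progenitors, which is 1.82 times as high in the former and a difference of -0.85. *Jag2*, at chr12:112908590-112929495, is a ligand that HCs are known to express. Its FPKM was 9.21 in Lgr5+ and 32.7 in Lgr6+ progenitors, which is 3.56 times as high in the latter and a difference of 1.72. Only 6.72% of all kept genes had a higher difference than *Jag2*.

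The ratio of *Jag1* to *Jag2* within a population does not depend on how the populations are scaled to each other. It was 11.7 in Lgr5+ and 1.81 in Lgr6+ progenitors.

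The Delta ligands were both higher in Lgr6+ progenitors. *Dll1*, at chr17:15367354-15375823, encodes a Delta ligand of nascent HCs that activates Notch on neighbours. It had an FPKM of 7.80 in Lgr5+ and 17.9 in Lgr6+ progenitors, a ratio of 2.30 and a difference of 1.10. *Dll3*, at chr7:28293555-28301785, encodes a divergent Delta protein that does not activate Notch on neighbouring cells and is known to dampen it within its own cell. It had 6.15 in Lgr5+ and 20.1 in Lgr6+ progenitors, a ratio of 3.26 and a difference of 1.56. *Dll1* stood above 45.4% of the kept genes in Lgr5+ progenitors and above 66.3% in Lgr6+ progenitors, and *Dll3* above 40.1% and 69.04%.

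**Figure D2:**
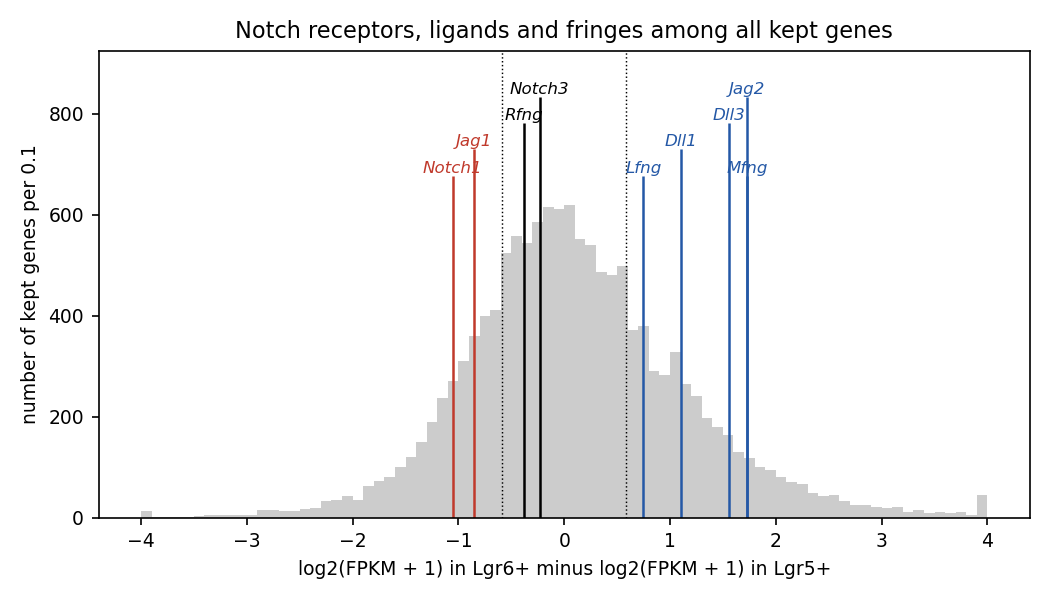
The grey bars count the 13436 kept genes by their difference in log2(FPKM + 1), Lgr6+ minus Lgr5+, in steps of 0.1, with differences beyond 4 placed in the end bars. Vertical lines mark the 9 kept Notch genes and the dotted lines 1.5-fold, with *Notch1* and *Jag1* left of the dotted lines, *Notch3* and *Rfng* between them, and *Lfng*, *Dll1*, *Dll3*, *Jag2* and *Mfng* to their right, from 0.75 to 1.73.

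Summed over the 4 ligands, FPKM was 130.7 in Lgr5+ and 129.9 in Lgr6+ progenitors, so the sums lay at 99.4% of each other while their makeup differed. The direction of that small difference depends on scaling, since the Lgr6+ sum became 104.6% after quantile normalization and 119.4% when both columns were given the same total. *Jag1* made up 82.3% of the ligand sum in Lgr5+ progenitors and 45.6% in Lgr6+ progenitors. *Dll1*, *Dll3* and *Jag2* together made up 17.7% and 54.4%, with FPKM sums of 23.2 and 70.7. Of the single shares, that of *Jag2* was 7.05% and 25.2%, that of *Dll3* 4.70% and 15.4%, and that of *Dll1* 5.97% and 13.8%. The Delta ligand gene *Dll4*, with an FPKM of 6.60 in Lgr5+ and 10.002 in Lgr6+ progenitors, is not among the 10 genes. It is left out of these sums and shares.

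Markers of HCs were present in both populations. All 9 HC markers were kept, and 6 of them were past 1.5-fold toward Lgr6+ progenitors and 0 toward Lgr5+ progenitors. The first is a share of 66.7%, beside 28.5% of all kept genes, and the second stands beside 23.3%. The median difference of the HC markers was 0.69, with a range from -0.22 for *Pvalb*, a calcium-binding protein, to 2.01 for *Otof*, the synaptic protein otoferlin. Their FPKM summed to 784 in Lgr5+ and 999.96 in Lgr6+ progenitors. None of the defining HC markers was at 0. *Atoh1*, the transcription factor that specifies HCs, had 30.9 and 36.4, *Pou4f3* had 31.01 and 48.96, and the HC myosin gene *Myo7a* had 19.3 and 46.99. *Jag2* and *Dll3* had higher differences than every HC marker but *Otof*. *Dll1*, at 1.10, had a lower difference than *Otof*, *Gfi1* (1.46) and *Myo7a* (1.24). The part of HC RNA in the ligand differences was not tested.

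SC markers were found in both columns, at levels from 6.12 and 4.38 for *Prox1* to 2959 and 3177 for *S100a1*. Of 9 SC markers 2 were past 1.5-fold toward Lgr5+ progenitors and 1 toward Lgr6+ progenitors, and 6 were within it. These are shares of 22.2% and 11.1%, beside 23.3% and 28.5% of all kept genes. The median difference of the SC markers was -0.32, with a range from -1.33 for *Sox2* to 1.13 for *Slc1a3*, and their sums were 4894 and 4440.5. *Sox2*, a transcription factor of the prosensory cells and SCs, had an FPKM of 139.6 in Lgr5+ and 54.8 in Lgr6+ progenitors, and *Slc1a3*, a glutamate transporter of SCs, had 12.8 and 29.2. The part of SC RNA in the differences of *Jag1* and *Notch1* was not tested. *Lgr5* had an FPKM of 9.65 in Lgr5+ and 24.99 in Lgr6+ progenitors, while *Lgr6* had 2.06 and 2.90. Lgr6 is known to mark a part of the cells that express Lgr5 in the neonatal organ of Corti. EGFP also reports each locus in its own line, so the level of *Lgr5* does not by itself check the sort. *Lgr6* had a difference of 0.35 and was not past 1.5-fold toward Lgr6+ progenitors. The purity of the sort was not tested here.

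Of the 3 roles, the fringes differed most in summed level. *Mfng*, manic fringe, at chr15:78755883-78773445, had an FPKM of 46.7 in Lgr5+ and 157 in Lgr6+ progenitors, which is 3.37 times as high in the latter and a difference of 1.73. *Mfng* stood above 84.5% of the kept genes in Lgr5+ and above 95.1% in Lgr6+ progenitors, and 6.67% of all kept genes had a higher difference. *Lfng*, lunatic fringe, at chr5:140607341-140615545, is itself a target of Notch in other tissues. It had 9.96 in Lgr5+ and 17.4 in Lgr6+ progenitors, a ratio of 1.75 and a difference of 0.75. *Rfng*, radical fringe, at chr11:120780745-120784204, had 23.1 in Lgr5+ and 17.5 in Lgr6+ progenitors, a difference of -0.38.

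The fringe sum was 79.8 in Lgr5+ and 192 in Lgr6+ progenitors, 2.41 times as high in the latter. *Mfng* made up 58.6% of it in Lgr5+ and 81.8% in Lgr6+ progenitors, *Rfng* made up 28.96% and 9.11%, and *Lfng* made up 12.5% and 9.05%. The ratio of *Mfng* to *Rfng* was 2.02 in Lgr5+ and 8.98 in Lgr6+ progenitors, and that of *Mfng* to *Lfng* was 4.69 and 9.04. *Lfng* was at 0.431 of the level of *Rfng* in Lgr5+ progenitors and at 0.993 of it in Lgr6+ progenitors.

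**Figure D3:**
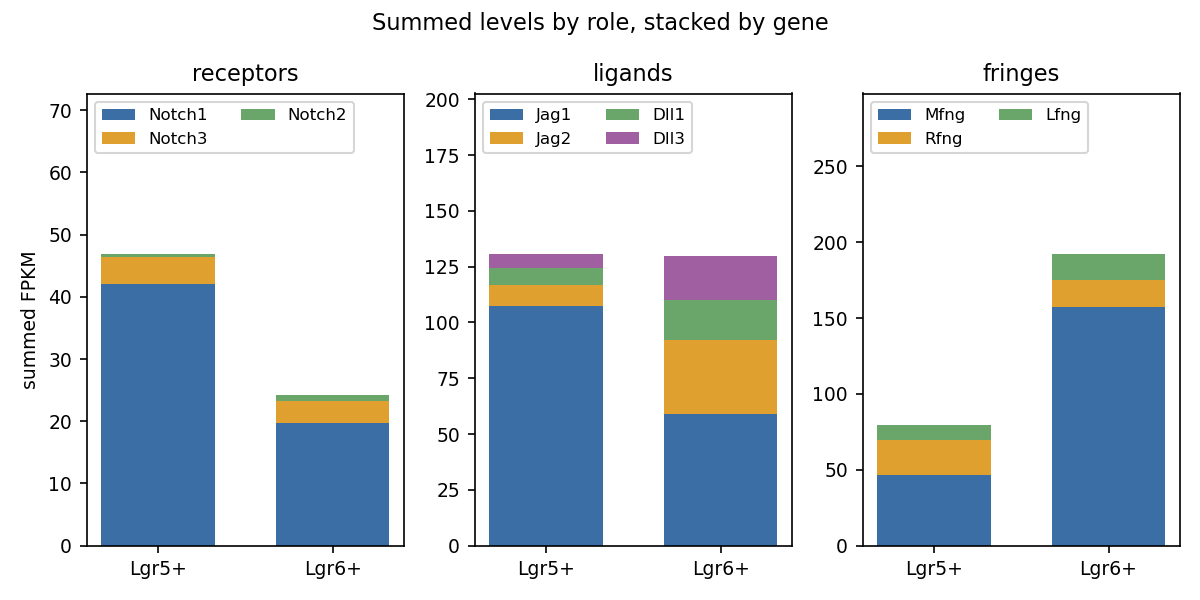
Bars stack the FPKM of the genes of each role in Lgr5+ and Lgr6+ progenitors, each panel on its own linear axis from 0. The receptor bar is lower in Lgr6+ progenitors (24.2 against 46.9), the ligand bars are nearly level at 130.7 and 129.9 with a smaller *Jag1* part in Lgr6+ progenitors, and the fringe bar is higher in Lgr6+ progenitors (192 against 79.8), mostly through *Mfng*.

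Markers of macrophages and of endothelium had higher sums in Lgr6+ progenitors, as *Mfng* did. So did the markers of HCs, of pericytes and smooth muscle, of fibrocytes and mesenchyme, and of neurons, while the sum of SC markers was lower. The higher neuron sum came from *Snap25*, with 7.63 in Lgr5+ and 53.4 in Lgr6+ progenitors, while *Tubb3*, *Nefl* and *Nefm* were lower in Lgr6+ progenitors. The fibrocyte and mesenchyme sum was higher mostly through *Otos*, with 5.60 and 248.5, while *Pou3f4*, *Dcn* and *Lum* were lower in Lgr6+ progenitors. The FPKM of 9 macrophage markers summed to 1.47 in Lgr5+ and 256 in Lgr6+ progenitors. In Lgr5+ progenitors 6 were listed at 0, including the defining markers *Csf1r* and *Ptprc*, which had 1.29 and 0.00814 in Lgr6+ progenitors. Low values fell on larger steps in Lgr5+ progenitors, 0.128 against 0.0401, so a low level can read as 0 more easily there. The remaining defining marker, *C1qa*, had 0.905 and 16.2. The 7 macrophage markers that were kept had passed the filter through Lgr6+ progenitors alone, so that their count past 1.5-fold, all 7, was largely set by the filter. Of 9 endothelial markers, 8 were past 1.5-fold toward Lgr6+ progenitors, 4 of which had passed the filter through Lgr6+ progenitors alone, and 1 was past it toward Lgr5+ progenitors, having passed through these alone. These are shares of 88.9% and 11.1%, beside 28.5% and 23.3% of all kept genes. The endothelial sum was 19.3 in Lgr5+ and 104 in Lgr6+ progenitors, and the defining markers *Pecam1* and *Cdh5* had 0.303 and 1.24 in Lgr5+ and 8.31 and 10.1 in Lgr6+ progenitors. The part of any of these cell types in the difference of *Mfng* was not tested.

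**Figure D4:**
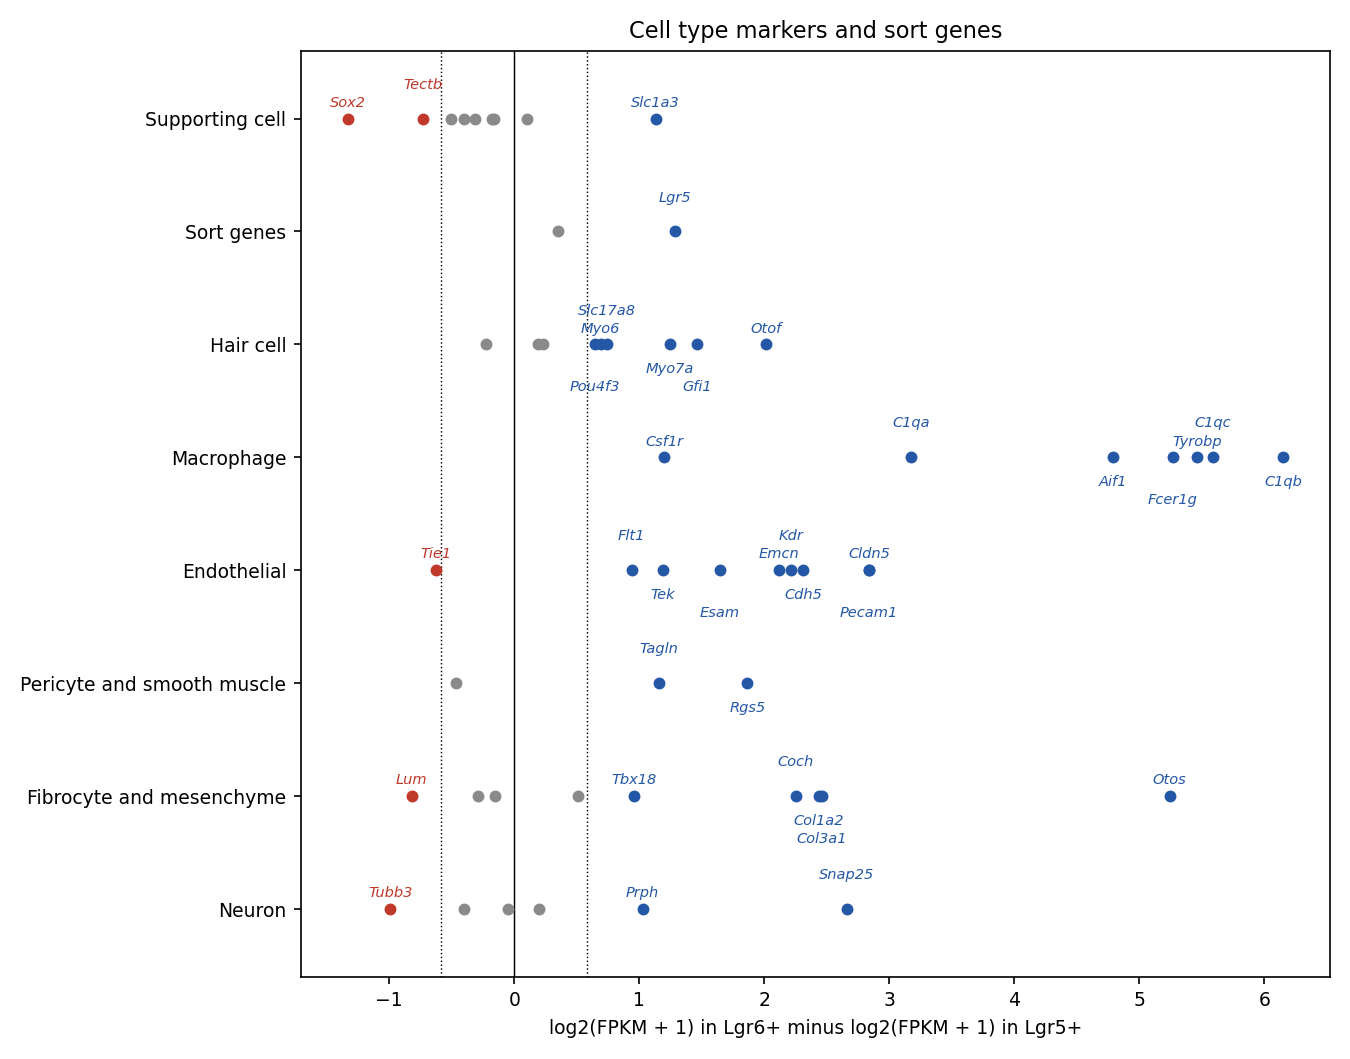
Each point is 1 kept marker gene, placed by its difference in log2(FPKM + 1), Lgr6+ minus Lgr5+, with 1 row per cell type reported and 1 row for the genes of the sort. Points past 1.5-fold (dotted lines) are coloured and named, red toward Lgr5+ and blue toward Lgr6+ progenitors, and 6 of 9 HC markers are blue. All 7 macrophage markers and 4 endothelial markers drawn in blue were under an FPKM of 1 in Lgr5+ progenitors.

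The rest of the pathway was described with a list of 52 other Notch genes. Of these, 51 were kept, 19 were past 1.5-fold toward Lgr5+ progenitors and 8 toward Lgr6+ progenitors. The first is a share of 37.3%, beside 23.3% of all kept genes, and the second a share of 15.7%, beside 28.5%. The median difference of the list was -0.48. The counts by role below rest on few genes each and have to be read against the same shares of all kept genes. *Mib1* and *Eogt* had passed the filter through Lgr6+ progenitors alone and *Dtx1* and *Dtx3l* through Lgr5+ progenitors alone. *Dlk1*, a ligand-like protein gene, was the 1 gene not kept, with an FPKM of 0.0674 in Lgr5+ and 0.0827 in Lgr6+ progenitors.

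Other receptor and ligand-like genes included *Notch4* and *Dll4*, best known from endothelium. *Notch4* had an FPKM of 1.86 in Lgr5+ and 1.54 in Lgr6+ progenitors, and *Dll4* had 6.60 and 10.002, and neither was past 1.5-fold. *Dlk2*, a relative of *Dlk1*, was higher than any of the 10 genes, with 158 in Lgr5+ and 255 in Lgr6+ progenitors and a difference of 0.68. *Dner*, a transmembrane protein with Delta-like repeats, had 1.73 and 5.004, a difference of 1.14.

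Genes that act on ligands and receptors before cleavage differed in both directions. *Mib2* and *Neurl1b*, ubiquitin ligases of ligand endocytosis, had differences of -1.08 and -1.10, while *Mib1*, the main ligase of this step, had 0.539 in Lgr5+ and 2.19 in Lgr6+ progenitors, a difference of 1.05. *Pofut1*, which adds the O-fucose that fringes extend, had 6.90 in Lgr5+ and 3.02 in Lgr6+ progenitors, a difference of -0.97 and thus opposite in sign to *Mfng*. *Eogt*, which adds a different sugar to the same repeats, had 0.168 and 2.90, a difference of 1.74.

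Most cleavage enzymes were under the threshold on the log2(FPKM + 1) scale, though *Aph1a* (-0.56) and *Psen2* (-0.52) lay near it. Of 10 genes, 9 were within 1.5-fold, and *Aph1b*, a subunit of gamma-secretase, was past it toward Lgr5+ progenitors with 2.69 and 1.19. In the nuclear complex 5 of 9 genes were past 1.5-fold toward Lgr5+ and 1 toward Lgr6+ progenitors. *Rbpj* had an FPKM of 17.01 in Lgr5+ and 7.82 in Lgr6+ progenitors, a difference of -1.03, close to the -1.05 of *Notch1*. The coactivator genes *Snw1*, *Maml3*, *Crebbp* and *Kat2a* had differences of -1.18, -1.08, -0.77 and -0.64, and *Maml2*, another coactivator of the Mastermind family, had 1.27.

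Of 7 corepressor genes 2 were past 1.5-fold toward Lgr5+ progenitors, *Hdac1* and *Ctbp1*, and *Ctbp2* was past it toward Lgr6+ progenitors. Of 8 genes of trafficking and turnover, the Deltex genes *Dtx1*, *Dtx2* and *Dtx4* were past 1.5-fold toward Lgr5+ and *Dtx3* toward Lgr6+ progenitors.

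All 6 target genes were past 1.5-fold, 5 of them toward Lgr5+ progenitors, in the direction of *Notch1* and *Jag1* and opposite to *Dll1*, *Dll3*, *Jag2* and *Mfng*. *Hes5* had an FPKM of 505 in Lgr5+ and 91.7 in Lgr6+ progenitors, a difference of -2.45, and *Hey2* had a difference of -2.16. *Nrarp*, a feedback inhibitor that Notch switches on, had 20.95 in Lgr5+ and 6.90 in Lgr6+ progenitors, a difference of -1.47. *Hes1* and *Hey1* had differences of -1.36 and -0.89. *Heyl* alone was past 1.5-fold toward Lgr6+ progenitors, with 6.50 in Lgr5+ and 11.2 in Lgr6+ progenitors and a difference of 0.70.

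**Figure D5:**
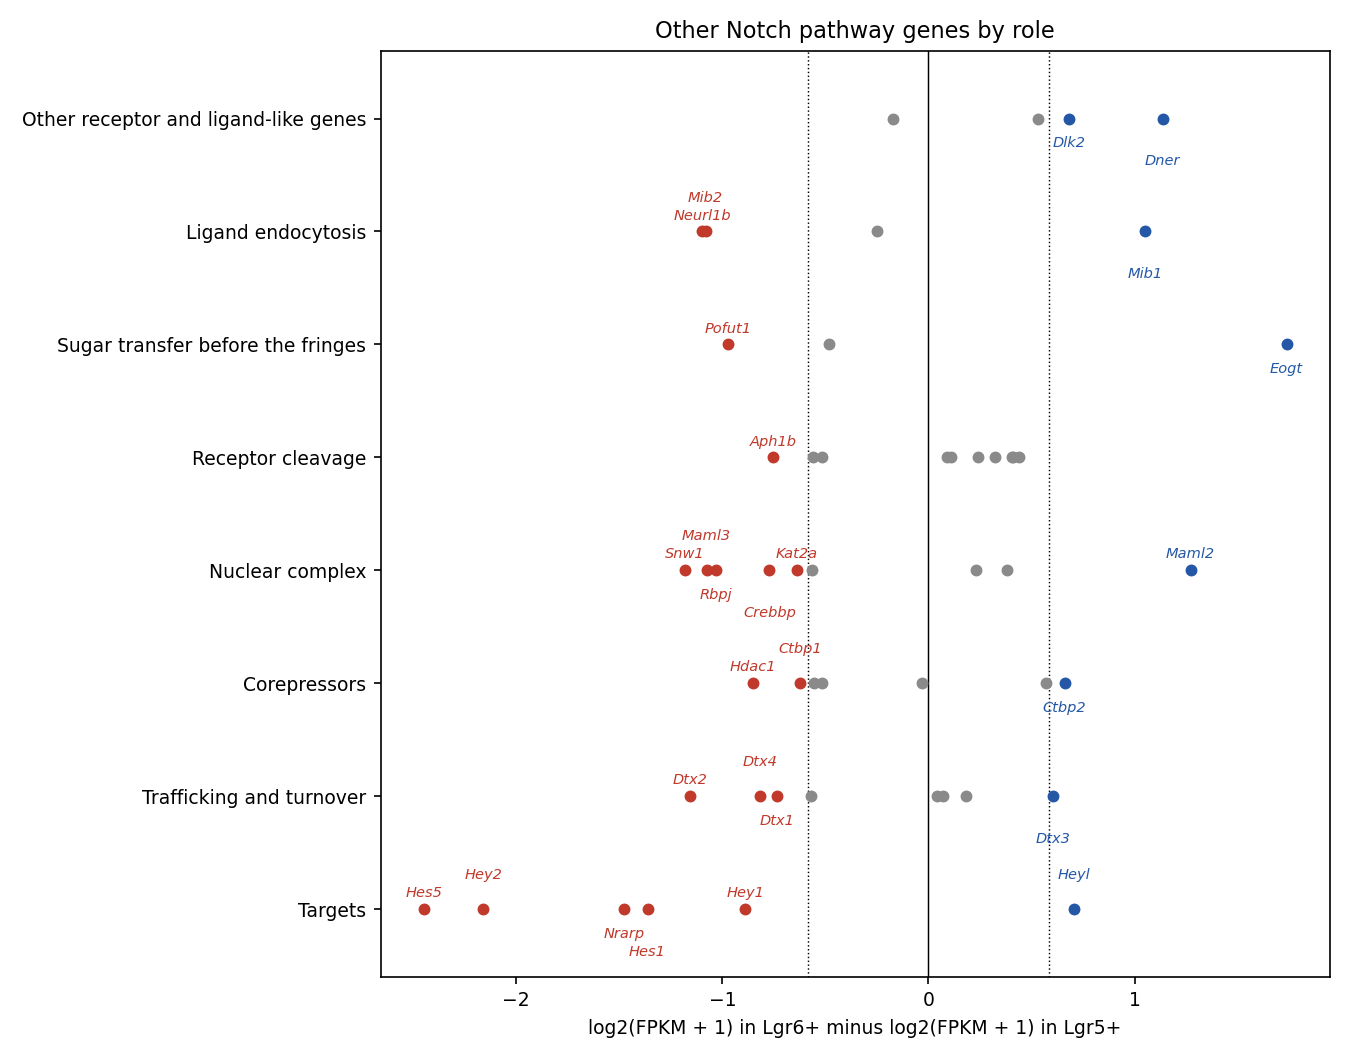
Each point is 1 of the 51 kept genes of the pathway other than the 10 described first, placed by its difference in log2(FPKM + 1), Lgr6+ minus Lgr5+, with 1 row per role. Genes past 1.5-fold (dotted lines) are named, red toward Lgr5+ and blue toward Lgr6+ progenitors, and 5 of the 6 targets lie at -0.89 or below while 9 of 10 cleavage genes lie between the dotted lines.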

How the data were processed

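RNA-Seq of sorted Lgr5+ and Lgr6+ progenitors was analysed from 1 table. Reads were trimmed with Trimmomatic and mapped with TopHat, and FPKM was calculated with Cufflinks and deposited by the authors as 1 combined FPKM value per gene and population. The methods name mm9 and the submitters' processing notes name mm10, and the intervals of the 10 genes match GRCm38, so positions are given for GRCm38 with starts counted from 1. The log2 fold change, p-value and q-value columns hold the authors' own comparison and were not used.

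Genes whose FPKM was 1 or more in either population were kept, a pseudocount of 1 was added before log2, and differences of at least 1.5-fold were counted. The mean level of a gene is the mean of both log2(FPKM + 1) values, turned back to FPKM. The members and lists were chosen with earlier results of these data known. All 10 members were named, and of the other pathway genes those past 1.5-fold or at 0. *Dlk1*, *Notch4* and *Dll4*, and the markers that were named, were chosen after their values were seen. Antisense and other overlapping genes cannot be told apart where strand was not used, which is not given in the sources used here. The list of Schwann cell and glia markers is not reported here. Depth per library is unknown, because the table gives no counts. The steps of low values were read from 7050 genes with 1 transcript in GENCODE M1, with 106 products within 5% of the step and 11 beside it in Lgr5+ progenitors, and 51 and 8.5 in Lgr6+ progenitors. Each step count used the longest GENCODE M1 transcript. If 1 step stood for 1 fragment in both populations, the depth of Lgr6+ progenitors would be 3.20 times that of Lgr5+ progenitors. Alternatives were other pseudocounts, filters, scalings and a 2-fold threshold. Python 3.11.15, numpy 2.4.6, pandas 2.3.3 and matplotlib 3.10.9 were used, and the calculations were tested on simulated data.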

Additional observations from a re-analysis of the deposited data

How the results depend on the processing

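All 7 genes past 1.5-fold kept their direction under the 3 scalings, in 21 of 21 values. Scaling to the same sum or upper quartile multiplies a whole column by 1 factor. Both factors were small beside the differences of these genes, so only quantile normalization could have turned a direction. The other alternatives (pseudocounts, filters and the fold) cannot turn a direction. The number past the threshold was 2 toward Lgr5+ and 5 toward Lgr6+ progenitors under each alternative except a 2-fold threshold. That threshold left 1 (*Notch1*) and 4 (without *Lfng*), beside 11.7% and 18.2% of all kept genes. The shares of all genes compared, beside 2 and 5, were 25.6% and 31.3% with a pseudocount of 0.1. They were 13.5% and 17.4% without a filter, and 24.1% and 24.1% with a minimum FPKM of 5. With the same upper quartile they were 23.4% and 28.4%, and after quantile normalization 26.5% and 24.7%. As a ratio without a pseudocount they were 26.1% and 28.9%, and with an FPKM of 1 in both populations 22.5% and 21.4%. The median difference of the family, 0.75 as reported, was 0.80 with a pseudocount of 0.1, 0.53 without a filter, where *Notch2* enters, 0.93 with a minimum FPKM of 5, 0.73 with both columns scaled to the same sum, where *Notch2* enters too (1.00 over the 9 genes kept as reported, computed after seeing the data), 0.75 with the same upper quartile, 0.72 after quantile normalization and 0.81 as a ratio of FPKM without a pseudocount. Scaling to the same sum moved the median of all kept genes from 0.03 to 0.28, and the shares past 1.5-fold from 23.3% and 28.5% to 16.3% and 37.6%. The difference of *Jag1* then came closest to the threshold, at -0.59, and that of *Notch3* was -0.02. After quantile normalization, which was applied to the shares and sums after seeing the data, *Jag1* made up 80.96% and 46.2% of the ligand sum and *Mfng* 57.9% and 82.7% of the fringe sum. The receptor and fringe sums in Lgr6+ progenitors were then 50.2% and 257% of those in Lgr5+ progenitors, and 61.9% and 289.6% with the same total.

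No paired analysis was possible because the deposited columns are combined values that carry no replicate number, and for the same reason no library was left out in turn. The depth of single libraries, which limits *Notch2* most, is unknown.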

Other observations

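Further lists of markers were compared, for cell types that border the sensory epithelium. Of 9 fibrocyte and mesenchyme markers, 5 were past 1.5-fold toward Lgr6+ and 1 toward Lgr5+ progenitors, and their FPKM summed to 325 in Lgr5+ and 602 in Lgr6+ progenitors. The counts are shares of 55.6% and 11.1%, beside 28.5% and 23.3% of all kept genes. *Otos*, the fibrocyte protein otospiralin, had a difference of 5.24, while *Pou3f4*, a transcription factor of the otic mesenchyme, had an FPKM of 14.9 in Lgr5+ and 13.2 in Lgr6+ progenitors. Of 6 neuron markers, 1 was past 1.5-fold toward Lgr5+ and 2 toward Lgr6+ progenitors, of which *Tubb3* and *Prph* had each passed the filter through their higher population alone, with sums of 92.96 and 124.6. These counts are shares of 16.7% and 33.3%, beside 23.3% and 28.5% of all kept genes. The higher neuron sum in Lgr6+ progenitors came from *Snap25*, with an FPKM of 7.63 in Lgr5+ and 53.4 in Lgr6+ progenitors.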
